A study of Mus musculus with 4 samples.

Results

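The genes described here are 8 osteogenic and mineralization genes, Bglap, Bglap2, Runx2, Sp7, Alpl, Phex, Phospho1 and Enpp1, taken by symbol from the 32285 genes of a single-cell RNA-sequencing series of mouse molar tooth organs. The series holds 4 libraries from wild-type mice (genotype label WTB6), each pooled from 6 tooth organs: maxillary and mandibular molars at embryonic stage E15.5 and postnatal stage P1. The titles of the embryonic samples read E15, while their protocol gives E15.5 and, for the later stage, pups at P0/P1. Each stage and jaw was therefore a single library, neither was compared by a test, and the tooth organs of a pool cannot be told apart. All 8 genes were detected in every library.

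Mineralized tissue is laid down in the molar by odontoblasts, which secrete dentin from the papilla side, and by osteoblasts of the alveolar bone around the tooth, with the follicle lying between tooth and bone. Runx2 and Sp7 (osterix) are transcription factors of the osteoblast lineage. Alpl, tissue-nonspecific alkaline phosphatase, splits pyrophosphate, an inhibitor of mineral growth, while Enpp1 makes extracellular pyrophosphate from nucleotides and Phospho1 releases phosphate inside matrix vesicles. Phex is a membrane endopeptidase whose loss causes X-linked hypophosphatemia. Bglap and Bglap2 encode osteocalcin, a calcium-binding matrix protein that serves as a late marker of osteoblasts and is also made by odontoblasts.

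In the mm10 annotation Bglap lies at chr3:88383501-88384464 and Bglap2 at chr3:88377736-88378699, both on the minus strand. Runx2 lies at chr17:44495987-44814797, Sp7 at chr15:102356606-102367182, Alpl at chr4:137741733-137796384, Phex at chrX:157162075-157415312 and Enpp1 at chr10:24637914-24712159, all on the minus strand, and Phospho1 at chr11:95824499-95832140 on the plus strand. The 250 bases upstream of the RefSeq start were examined (RefSeq, GRCm38.p6) for 6 members with an entry. The core of the site bound by RUNX factors, ACCACA on either strand, was present upstream of 3 of them, Bglap, Enpp1 and Runx2. Counted by promoter entry, it was in 3 of the 7 entries of these 6 members, against 14% of 32851 entries of the same length (4614). The windows of Bglap and Enpp1 are shown because both genes hold the core and both were highest, among the named classes, in odontoblast-like cells, where Runx2 stood below its level in bone-, follicle- and papilla-like cells, as given below. Phex was also highest in odontoblast-like cells at P1, and its window held no core. The capitals mark the core, which begins 132 bases upstream of the start in Bglap (chr3:88384467-88384716, minus strand) and 144 bases upstream in Enpp1 (chr10:24712160-24712409, minus strand).
Bglap: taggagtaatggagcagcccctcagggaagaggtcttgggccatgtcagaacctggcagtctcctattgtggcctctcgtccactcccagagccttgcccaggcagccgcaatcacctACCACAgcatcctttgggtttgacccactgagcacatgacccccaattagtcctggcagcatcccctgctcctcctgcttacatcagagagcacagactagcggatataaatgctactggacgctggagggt
Enpp1: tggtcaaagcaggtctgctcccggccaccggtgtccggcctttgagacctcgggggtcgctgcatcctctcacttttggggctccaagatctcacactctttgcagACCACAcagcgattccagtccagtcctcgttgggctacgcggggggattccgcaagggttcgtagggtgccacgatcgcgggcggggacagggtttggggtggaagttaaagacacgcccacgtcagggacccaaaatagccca
The Bglap window also holds a TATAAA, which was found on the gene's strand in 7.59% of the entries. Such a match is a run of letters and was not tested as a binding site. Bglap and Bglap2 are near copies: of the 351 stretches of 90 bases in the 440-base Bglap transcript, 212 (60.4%) occur unchanged in Bglap2, so reads from such stretches cannot be assigned to either gene, and the separate levels of the pair are uncertain. The third osteocalcin gene, Bglap3, shares none of these stretches with Bglap, but 30 of the 382 stretches of Bglap2 (7.85%) occur in it.

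The libraries held 109723360 (E15.5 maxillary), 86659227 (E15.5 mandibular), 128812956 (P1 maxillary) and 139873101 (P1 mandibular) unique molecular identifiers (UMIs, each standing for 1 captured RNA molecule). After filtering, 8395, 6059, 13760 and 8158 cells remained, and the median cell held 9887, 11595, 3950.5 and 11016 UMIs. The P1 libraries shared 7131 cell barcodes, and in 7093 of these the maxillary library held more UMIs, by a median of 4.21-fold; no other pair of libraries shared more than 70. Shared barcodes were kept in the P1 maxillary library only. They made up 359 of the 370 odontoblast-like cells there (97.03%), 98.88% of papilla-like, 54.05% of bone-like and 26.83% of follicle-like cells, so the P1 maxillary values of odontoblast-like and papilla-like cells rest almost wholly on barcodes that also occur in the mandibular library, whereas the mandibular values contain none of them.

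The clustering, done per library, left out the 8 genes and 24 further pathway genes, and clusters were named from marker lists. Bone-like cells numbered 237, 85, 37 and 47 in the order of libraries above. Odontoblast-like cells were found at P1 only, 370 in the maxillary library and 369 in the mandibular. Follicle-like cells numbered 1128, 523, 1010 and 147, papilla-like cells 301, 73, 2402 and 1814, and epithelium-like cells 704, 94, 1710 and 1201; those of the E15.5 mandibular library were suprabasal oral epithelium alone. Levels are given as UMIs of a gene per 1000000 UMIs of the class (CPM), with exact Poisson 95% intervals that cover counting error only.

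The names were set against the markers. Odontoblast-like cells carried all 6 markers of their list, among them the dentin matrix gene Dspp at 301 and 1047 CPM and Dmp1 at 344 and 495 CPM. In bone-like cells the bone matrix gene Ibsp stood at 1070, 8261, 292 and 1481 CPM and the collagenase Mmp13 at 173, 620, 943 and 1043 CPM, while Dspp stood at no more than 3.76 CPM. Mepe, an osteocyte gene on the bone list, was at 0 in 3 of the 4 libraries and at 3.41 CPM in the E15.5 mandibular one. Ifitm5 and Omd, also on that list, were higher in odontoblast-like cells (Ifitm5 774 and 832 CPM, Omd 428 and 490 CPM) than in the bone-like cells of the same libraries (Ifitm5 52.0 and 147 CPM, Omd 111 and 173 CPM). The osteoclast genes Ocstamp and Atp6v0d2 were at or below 0.57 CPM in bone-like cells, and Acp5 at or below 3.98 CPM, while Ctsk stood at 103 to 153 CPM and Mmp9 at 75.2 to 337 CPM; the part of osteoclasts in the bone-like values was not tested. The bone-like class held different clusters in each library: those led by Spp1 and Fat3 were the larger part at E15.5 in the maxilla, an Ibsp- and Ifitm5-led cluster of 35 cells was the largest at E15.5 in the mandible, and those led by Pdzrn4, Mmp13 and Spp1 made up the class at P1. The follicle list gave a broad name, and its P1 clusters with the highest Runx2 were led by Ibsp and Bmp3.

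**Figure D1:**
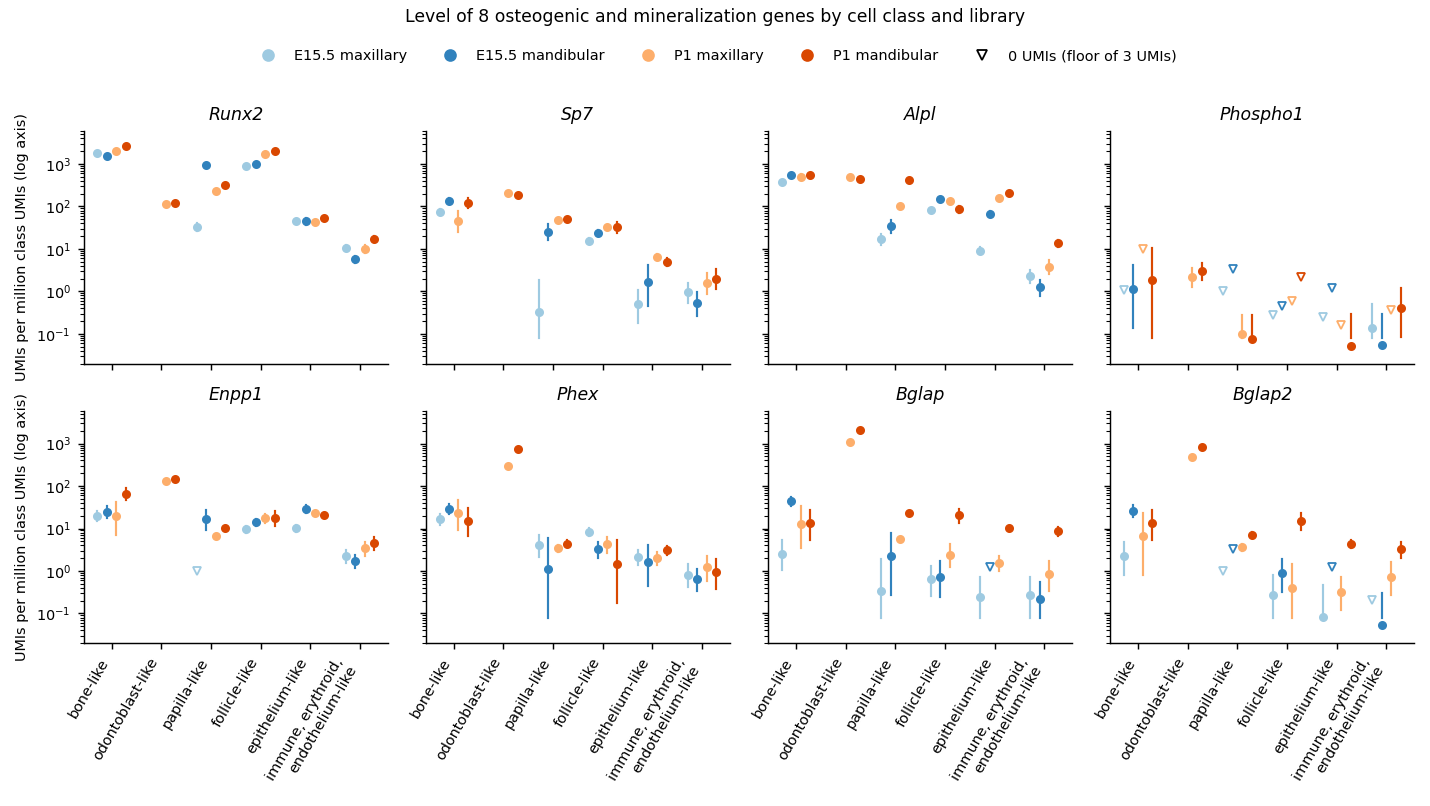
Level of each of the 8 genes (CPM, log axis) in 6 cell classes, with a point for each library and a bar for the exact Poisson 95% interval; open triangles stand at the floor of 3 UMIs where no UMI was counted. Of the classes drawn, bone-like and follicle-like cells hold the most Runx2 in each library (915 to 2676 CPM), whereas Bglap, Bglap2, Phex and Enpp1 are highest in odontoblast-like cells of both P1 libraries.

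Runx2 transcripts were most abundant outside the odontoblasts. Bone-like cells held 1785, 1553, 1999 and 2676 CPM and follicle-like cells 915, 995, 1761 and 2044 CPM in the 4 libraries. Odontoblast-like cells held 117 CPM in the maxillary (interval 110 to 126) and 118 CPM in the mandibular library (110 to 126). Among the 5 classes compared here the order at P1 was thus bone-like, follicle-like, papilla-like (233 and 315 CPM), odontoblast-like and epithelium-like cells (43.8 and 54.4 CPM) in both jaws, with no overlap of intervals between neighbours, although bone-like cells fell below follicle-like cells in the mandible under 2 alternatives, given below. Immune-, erythroid- and endothelium-like cells, read here as background cells although no empty droplets were analysed here, held 10.8, 5.79, 10.1 and 17.4 CPM. Ameloblast-like cells, the enamel-secreting epithelium, held 4.31 and 4.86 CPM, below that background. Every bone-like cell had at least 1 Runx2 UMI, and after thinning each cell to 1000 UMIs the share was still 74.3%, 61.2%, 86.5% and 91.5%, against 1.21%, 0.485%, 1.43% and 1.84% in the background cells. In odontoblast-like cells the thinned shares were 8.92% and 10.0%.

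Runx2 varied widely within the mesenchyme. In the E15.5 mandibular library 58 facial mesenchyme-like cells held 2031 CPM (1933 to 2133), above bone-like and follicle-like cells, while the 451 of the E15.5 maxillary library held 106.5 CPM. At P1 connective tissue fibroblast-like cells stood at 15.4 and 20.5 CPM and mandibular tendon-like cells at 26.9 CPM, below odontoblast-like cells. The highest level of any cluster was 4157 CPM (interval 3976 to 4344) in 56 unnamed cells of the E15.5 maxillary library led by Ibsp and Gabrg3, and unnamed cells carried 45.3% of all Runx2 UMIs of that library. At P1 the highest clusters were follicle-like, at 3116 CPM in 85 maxillary cells led by Ibsp and Igfbp5 and 2801 CPM in 81 mandibular cells led by Bmp3 and Ibsp. Papilla-like cells at E15.5 held 32.5 CPM in the maxillary and 961 CPM in the mandibular library, from 301 and 73 cells of clusters led by different genes (Nrg1 and Slc25a21 against Col8a1 and Plppr1).

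At P1 Sp7 was highest in odontoblast-like cells. It stood at 209 CPM (198 to 220) and 186 CPM (176 to 196) in odontoblast-like cells, and at 73.9, 138, 45.5 and 122 CPM in bone-like cells. Papilla-like cells reached 0.335 and 25.3 CPM in the E15.5 libraries, 48.9 and 49.9 CPM in those of P1, and follicle-like cells 15.7, 23.4, 32.0 and 32.7 CPM; background cells held 2.01 CPM or less in every library. In the P1 maxillary library the bone-like interval (24.9 to 76.4 CPM) includes the papilla-like and follicle-like levels. It also includes the 62.3 CPM of 567 unnamed cells there. At E15.5 chondrocyte-like cells held 73.6 CPM (51.3 to 102) in 17 maxillary and 65.65 CPM (50.1 to 84.5) in 25 mandibular cells. The maxillary value lies near the bone-like one of that library. In the E15.5 mandibular library 58 unnamed cells stood at 99.8 CPM (79.3 to 124). Odontoblast-like cells were 2.69% and 4.52% of the kept P1 cells and carried 37.1% and 39.4% of all Sp7 UMIs. At E15.5 the Ibsp- and Ifitm5-led bone-like clusters stood highest, at 177 CPM in 19 maxillary cells and 187 CPM in 35 mandibular cells, levels that overlap those of odontoblast-like cells at P1. All bone-like cells with an Sp7 UMI also had a Runx2 UMI (95, 68, 11 and 29 cells), as follows from Runx2 being detected in all of them. In odontoblast-like cells Runx2 and Sp7 were detected together in 249 of 370 maxillary cells (67.3%), against 67.5% from the product of the separate shares, and in 252 of 369 mandibular cells (68.3%), against 67.5%.

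Alpl was shared by bone, odontoblasts, parts of the follicle, papilla and epithelium, some facial mesenchyme and some unnamed cells. It stood at 383, 565, 497 and 538 CPM in bone-like cells and at 501 and 444 CPM in odontoblast-like cells. Follicle-like cells held 83.3, 149, 136 and 85.0 CPM. Some of their E15.5 clusters stood higher, at 305 CPM (274 to 338) in 124 maxillary and 379 CPM (311 to 457) in 22 mandibular cells. The lowest bone-like cluster of the E15.5 maxillary library stood at 255 CPM (228 to 285). The 58 facial mesenchyme-like cells of the E15.5 mandibular library held 272 CPM (237 to 311). Papilla-like cells held 16.8 and 34.1 CPM at E15.5, and 105 CPM in the maxillary and 416 CPM in the mandibular library at P1. The mandibular value came mainly from a single cluster of 589 cells at 1022 CPM (1001 to 1043), led by Csmd1 and Stbd1, and in the maxillary library the highest level, 617 CPM, was in 567 unnamed cells led by Grm8 and Stbd1, outside the papilla-like class; the part of this in the jaw difference was not tested. The highest E15.5 mandibular cluster, at 844 CPM (782 to 910), was 58 unnamed cells led by Tmem132d and Pax3, above each bone-like cluster of that library, and 37 unnamed P1 mandibular cells led by Pdzrn4 and Mmp13 stood at 536 CPM (468 to 611). Papilla-like cells carried 55.4% of all Alpl UMIs of the P1 mandibular library.

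Within the P1 epithelium Alpl and Enpp1 were highest in different clusters. Alpl reached 447 CPM in a maxillary cluster led by Odam and Mindy4, and 340 and 471 CPM in mandibular clusters led by Mindy4 and Odam and by Enpp2 and Jph4. It stood at 5.90 and 5.96 CPM in the clusters led by Vwde and at 2.74 and 4.19 CPM in ameloblast-like cells, beside 3.79 and 13.5 CPM in background cells. Enpp1 was highest in the Vwde-led clusters, at 44.7 CPM (39.6 to 50.4) in the maxillary and 87.8 CPM (74.8 to 102) in the mandibular library, and stood at 0.392 and 1.84 CPM in ameloblast-like cells. In the Odam- and Mindy4-led clusters it stood at 21.6 and 14.2 CPM, and in the Enpp2- and Jph4-led cluster, the highest for Alpl, at 30.6 CPM (25.7 to 36.1). No cluster reached the name of stratum intermedium or stellate reticulum, the cell layers beside the ameloblasts, so these clusters are called by their leading genes.

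**Figure D2:**
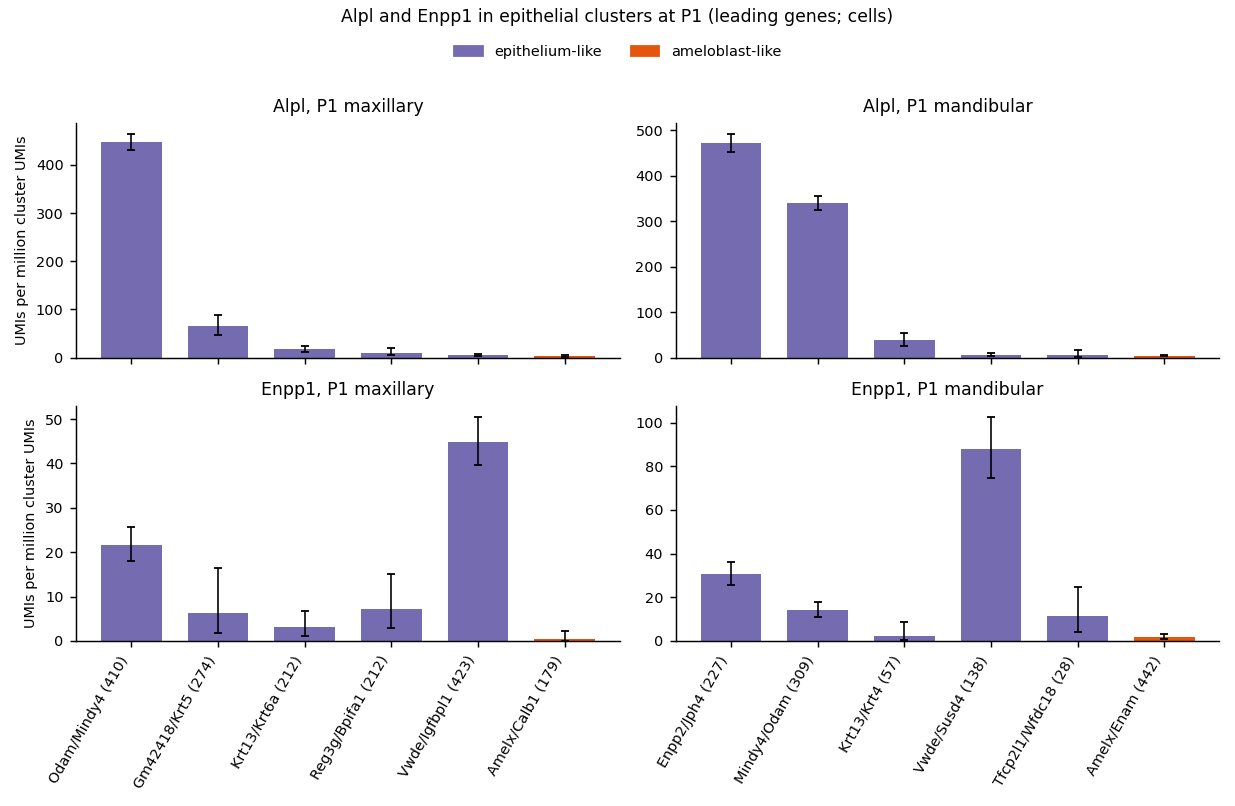
Alpl (top) and Enpp1 (bottom) in the epithelial clusters of the P1 maxillary and P1 mandibular libraries, in CPM of the cluster with exact Poisson 95% intervals; clusters are named by their leading genes, with cells in brackets, and ordered by Alpl. Alpl is high in the Odam/Mindy4 and Enpp2/Jph4 clusters and Enpp1 in the Vwde clusters, while ameloblast-like cells hold less than 5 CPM of either.

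Enpp1, the pyrophosphate-generating enzyme, was highest in odontoblast-like cells among the named classes, at 131 CPM (123 to 140) and 146 CPM (137 to 155). Bone-like cells held 19.8, 24.99, 19.5 and 65.8 CPM, the last from 35 UMIs in 47 cells, and follicle-like cells 9.63, 14.0, 17.3 and 17.4 CPM. At E15.5 in the mandible 37 of the 44 bone-like UMIs lay in the 29 cells led by Spp1 and Mmp13. For Enpp1 the background cells were uneven: an immune-like cluster in each library stood at 13.04, 9.57, 15.02 and 15.46 CPM, against at most 0.813 CPM in any erythroid-like cluster. An unnamed cluster of 22 mandibular P1 cells led by Vtn and Asic2 stood higher, at 219 CPM (163 to 289). Odontoblast-like cells carried 48.3% and 49.3% of all Enpp1 UMIs at P1. Alpl and Enpp1 were detected in the same cell in 68.4% and 67.8% of odontoblast-like cells, against 67.2% and 67.5% from the separate shares.

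Phospho1 was near the limit of detection everywhere. The libraries held 4, 6, 21 and 28 Phospho1 UMIs over all kept cells, and 16 and 21 of those at P1 lay in odontoblast-like cells, at 2.23 and 3.04 CPM. That is 76.2% (52.8% to 91.8%) and 75.0% (55.1% to 89.3%) of the P1 UMIs, from 4.32% and 5.15% of the odontoblast-like cells. In bone-like cells 0, 2, 0 and 1 UMIs were counted. The 0 among 2734269 bone-like UMIs of the E15.5 maxillary library allows up to 1.10 CPM, taken as 3 UMIs of the total, but that among the 307659 of the P1 maxillary library allows up to 9.75 CPM, so a difference from odontoblast-like cells was not detectable at this depth.

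Most Phex transcripts at P1 lay in odontoblast-like cells. Odontoblast-like cells held 303 CPM (291 to 316) in the maxillary and 740 CPM (720 to 761) in the mandibular library, and carried 86.2% and 91.9% of all Phex UMIs. Bone-like cells held 16.5, 29.0, 22.8 and 15.04 CPM from 45, 51, 7 and 8 UMIs. At E15.5 in the maxilla 36 of the 45 UMIs lay in 10% of the cells of a 90-cell cluster. The E15.5 mandibular bone-like clusters stood at 42.8, 33.8 and 2.39 CPM. In follicle-, papilla- and epithelium-like cells, each taken as a whole class, the level was at most 8.35 CPM in any library. Background cells held 0.824, 0.644, 1.22 and 0.936 CPM. A follicle-like cluster of 65 E15.5 maxillary cells stood at 30.2 CPM (17.2 to 49.0), from 16 UMIs. In the E15.5 mandibular library facial mesenchyme-like cells stood at 20.3 CPM (11.6 to 32.9) and 58 unnamed cells at 29.6 CPM (18.95 to 44.0). Connective tissue fibroblast-like cells stood at 9.73, 6.78, 10.2 and 10.2 CPM, above the background in each library, and held the most Phex UMIs at E15.5 (38.2% and 39.7%). Tendon-like cells of the E15.5 maxillary library stood at 23.3 CPM (14.4 to 35.6), an interval that includes the bone-like level, and 37 unnamed P1 mandibular cells led by Pdzrn4 and Mmp13 at 40.5 CPM (23.6 to 64.8), from 17 UMIs. A Phex UMI was found in 39.5% and 54.5% of odontoblast-like cells (15.7% and 29.8% after thinning), and 97.3% and 97.5% of the odontoblast-like cells with Phex also had Bglap, which was detected in 80.5% and 88.1% of all of them.

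Osteocalcin was the gene product most restricted to odontoblast-like cells by share of UMIs. Bglap stood at 1100 CPM (1075 to 1124) in the maxillary and 2102 CPM (2068 to 2136) in the mandibular odontoblast-like cells, and Bglap2 at 484 CPM (468 to 500) and 824 CPM (803 to 846). These cells carried 94% and 93.1% of all Bglap UMIs of their libraries. Bone-like cells held 2.56, 43.7, 13 and 13.2 CPM of Bglap from 7, 77, 4 and 7 UMIs, in 5, 10, 2 and 4 cells. At P1 in the mandible the bone-like interval (5.29 to 27.1 CPM) overlaps that of the background cells (8.69 CPM, 6.71 to 11.1), so Bglap above background was not detectable there with the main settings. This depended on the processing. The bone-like level there was 40.4 CPM with the gene filter, 40.3 with resolution 2.0 and 385 with doublets kept. It was 8.64 CPM with a minimum of 2000 UMIs. After thinning it was 0, which cannot show absence, since 47 cells of 1000 UMIs each leave too few UMIs. At E15.5 in the mandible Bglap was above background (0.215 CPM), and 67 of the 77 UMIs lay in the 35 cells led by Ibsp and Ifitm5, at 80.9 CPM (62.7 to 103), in 11.4% of those cells. With the 3 osteocalcin genes summed, odontoblast-like cells held 1614 and 2981 CPM and bone-like cells 4.75, 71.6, 19.5 and 26.3 CPM. The sum does not depend on how counted reads were split between copies, but reads that could not be assigned to a copy may be missing from it.

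In follicle-, papilla- and epithelium-like cells Bglap was higher in the mandibular than in the maxillary P1 library, in the background cells as well, while in unnamed cells it was lower (8.34 against 13.5 CPM). Follicle-, papilla- and epithelium-like cells held 20.3, 22.7 and 10.2 CPM there, beside 8.69 CPM in background cells, against 2.42, 5.58 and 1.52 CPM in the maxillary library, beside 0.855 CPM. In the epithelium and follicle few cells carried these values: 156 epithelium-like UMIs lay in 5.29% of the 227 cells led by Enpp2 and Jph4, while the other P1 mandibular clusters of the epithelium outside the ameloblast-like cells stood at 2.49 to 5.71 CPM, and 24 follicle-like UMIs lay in 12% of 50 cells led by Pappa2 and Cntn5. The part of free RNA or joined cells was not tested. In the papilla-like class the mandibular UMIs lay mainly in the Csmd1- and Stbd1-led cluster with high Alpl (45.3 CPM of Bglap, 41.0 to 49.9), and in the maxilla the Grm8- and Stbd1-led unnamed cluster stood at 29.3 CPM (25.9 to 33.1). With shared barcodes kept in both libraries, mandibular follicle-, papilla- and epithelium-like cells held 16.1, 23.7 and 2.69 CPM of Bglap, the last from 61 UMIs.

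The first comparison asked how odontoblasts and bone differ in these genes within a library. Runx2 was 17.0-fold (maxillary) and 22.7-fold (mandibular) higher in bone-like cells, with log2 ratios of 4.09 (interval 3.94 to 4.24) and 4.51 (4.38 to 4.63). By point values Bglap was 84.6-fold and 160-fold lower in bone-like cells, the latter from a bone-like level whose interval overlapped that of background cells, at log2 ratios of -6.40 (-8.28 to -5.05) and -7.32 (-8.63 to -6.28), and Bglap2 was 74.5-fold and 62.6-fold lower. Phex was 13.3-fold and 49.2-fold lower, Enpp1 6.74-fold and 2.21-fold lower, and Sp7 4.58-fold and 1.52-fold lower. The Alpl ratio was -0.01 (-0.25 to 0.22) on the log2 scale in the maxilla and 0.27 (0.09 to 0.45) in the mandible. Phospho1 gave no ratio in the maxilla, and in the mandible 1 bone-like UMI gave -0.69 (-6.06 to 1.94).

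Of the 8 genes, 7 reached 20 CPM in either class. A ratio above 1 was given by 1 of these (Runx2) in the maxilla and 2 (Runx2 and Alpl) in the mandible, where 53.3% and 57.7% of genes gave one. By a change of at least 2-fold, 1 of these (Runx2) was higher in bone-like cells in both jaws, where 20.2% of 7645 and 20.4% of 7679 genes were. Lower in bone-like cells were 5 in the maxilla, where 14.9% of genes were, and 4 in the mandible, where 11.6% were; Sp7 made the difference. The bone-like side rests on 37 and 47 cells, and the intervals leave out any spread between animals. The maxillary library had no bone-like class under 6 of the alternative settings, and when barcodes scored as doublets were kept, mandibular bone-like cells held 385 CPM of Bglap with Dspp at 1.51 CPM. Over 3 alternatives in the maxilla the log2 ratio ranged from -2.66 to -1.75 for Sp7, from -1.88 (whole parent clusters) to 0.03 for Alpl and from 4.24 to 4.46 for Runx2. For Bglap (-8.15 and -5.39), Bglap2 (-9.28 and -6.01), Phex (-5.61 and -2.58) and Enpp1 (-2.91 and -2.41) only 2 of them, whole parent clusters and the mean of single-cell CPM, gave a measured ratio, since no UMI of these genes was left in the 37 bone-like cells after thinning. In the mandible the log2 ratio ranged from -8.09 to -2.58 for Bglap over 8 alternatives, the latter with doublets kept. For Bglap2 it ranged from -7.15 to -2.51 over 8 alternatives. Over 9 alternatives there it ranged from -6.50 to -2.59 for Phex, from -3.04 to -0.12 for Enpp1, from -1.61 to -0.30 for Sp7, from -0.19 to 0.77 for Alpl, whose sign turned in 3 of them, and from 4.03 to 5.10 for Runx2.

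**Figure D3:**
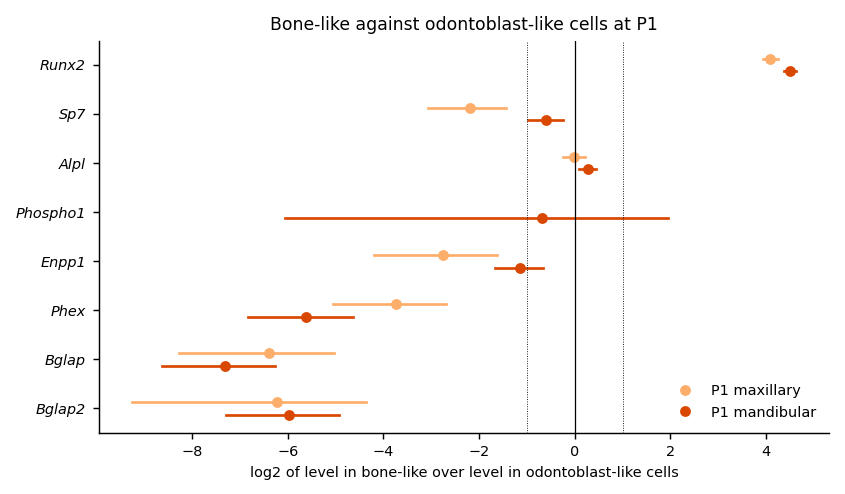
Log2 ratio of the level in bone-like over that in odontoblast-like cells for each gene in the P1 maxillary and P1 mandibular libraries, with exact binomial 95% intervals; dotted lines mark 2-fold. Runx2 lies above 4 in both libraries, Alpl near 0, and Bglap, Bglap2 and Phex below -3.

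The genes also varied among the odontoblast-like cells, which were split further and ordered by Dspp as a description. In the maxillary library the 5 groups held 148, 34, 73, 105 and 10 cells, with Dspp at 5.18, 5.47, 7.04, 211 and 6356 CPM; the first 3 do not differ beyond their intervals. Bglap stood at 199, 188, 462, 2023 and 7470 CPM across them and Phex at 42.6, 12.8, 75.5, 533 and 2791 CPM. In the mandibular library the 4 groups held 126, 120, 61 and 62 cells, with Dspp at 6.80, 20.02, 610 and 4930 CPM. Bglap stood at 166, 763, 3090 and 6572 CPM across them, and Phex at 19.1, 187, 1222 and 2379 CPM. Bglap was thus already above 100 CPM in groups with almost no Dspp, and in the last group of both jaws Bglap and Phex were highest.

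Alpl took another course across the same groups. It stood at 450, 376, 526, 608 and 166 CPM in the maxillary and 403, 579, 549 and 190 CPM in the mandibular library, lowest in the group with most Dspp in both jaws, without overlap of intervals with any other group. Enpp1 stood at 81.6, 43.8, 127, 196 and 262 CPM and at 56.7, 134, 246 and 215 CPM. Runx2 (67.5 to 174 CPM and 107 to 138 CPM) and Sp7 (164 to 270 CPM and 149 to 226 CPM) varied least of the 7 genes shown. The bone sialoprotein gene Ibsp and the osteopontin gene Spp1 stood high in the group before the last alone, with Ibsp at 243 CPM in the maxilla and 1709 CPM in the mandible and Spp1 at 816 and 1104 CPM. The last maxillary group held 10 cells, and the groups of a library share its background.

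**Figure D4:**
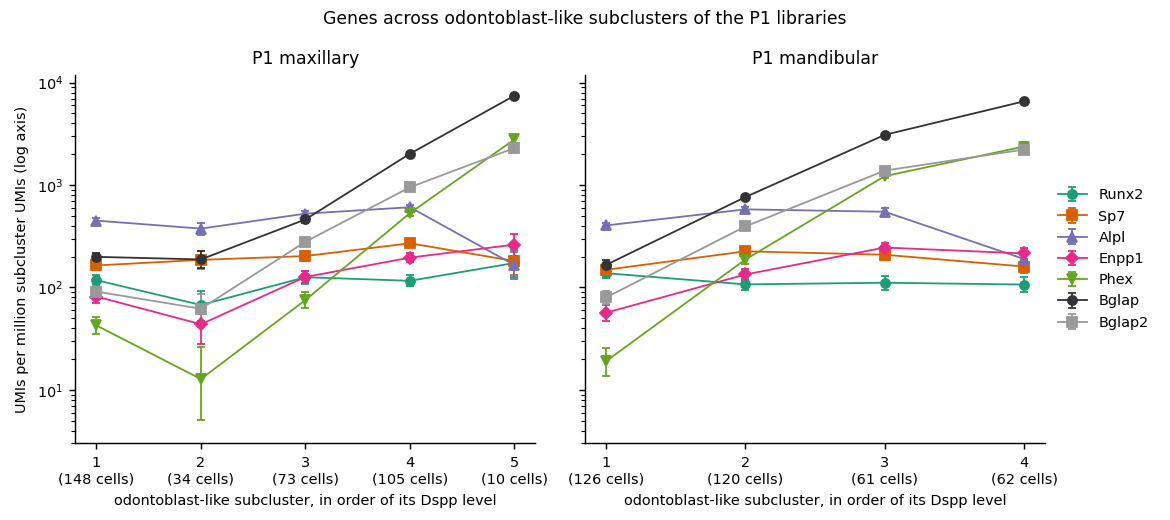
Level of 7 genes (CPM of the subcluster, log axis) in subclusters of odontoblast-like cells, ordered by Dspp level, in the P1 maxillary and P1 mandibular libraries, with exact Poisson 95% intervals. Bglap, Bglap2 and Phex are highest in the last subcluster of both libraries, where Alpl is lowest (166 and 190 CPM).

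Odontoblast-like cells were then set against the other tooth tissues of the same library. Against papilla-like cells, 6 of the 7 genes that reached 20 CPM were at least 2-fold higher in the maxilla, where 8.17% of 7708 genes were, and 5 of 7 in the mandible, where 8.02% of 7585 were. Bglap was 197-fold and 92.6-fold higher, Phex 88.1-fold and 168-fold, Enpp1 20.3-fold and 14.4-fold, and Sp7 4.27-fold and 3.72-fold. Alpl was 4.75-fold higher in the maxilla, but its log2 ratio was 0.09 (0.04 to 0.15) in the mandible, where the Csmd1- and Stbd1-led papilla-like cluster is high, and with resolution 2.0 the maxillary log2 ratio was 1.09. Runx2 went the other way, at log2 ratios of -0.99 (-1.09 to -0.89) and -1.42 (-1.52 to -1.31), and was the only member at least 2-fold lower, in the mandible alone, where 16.6% of genes were (18.3% in the maxilla). Against epithelium-like cells all 7 genes that reached 20 CPM were at least 2-fold higher in both jaws (12.4% and 13.2% of genes; 17.3% and 18.1% lower), although the mandibular Runx2 log2 ratio was 0.81 with doublets kept. Against follicle-like cells 6 of 7 were in both jaws (10.2% and 11.8%), and the remaining one, Runx2, was 15.02-fold and 17.4-fold lower (21.1% and 22.9% of genes at least 2-fold lower). With shared barcodes dropped from both libraries the maxillary Runx2 ratio was 1.68-fold, from 288 CPM in 25 odontoblast-like and 485 CPM in 2221 follicle-like cells.

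Bone-like cells were compared next with the follicle and the epithelium. Alpl was 4.60-, 3.79-, 3.66- and 6.33-fold higher in bone-like cells of the 4 libraries, although its P1 maxillary log2 ratio turned to -0.26 with whole parent clusters. Runx2 was higher by less, 1.95-, 1.56-, 1.14- and 1.31-fold, and the last turned to log2 ratios of -0.13 with a minimum of 2000 UMIs and -0.54 with whole parent clusters. Sp7 was 4.71-, 5.91-, 1.42- and 3.74-fold higher, and the P1 maxillary interval of its log2 ratio (-0.40 to 1.30) includes 0. Its P1 mandibular log2 ratio fell short of 2-fold, at 0.55, with shared barcodes kept in both libraries. Members at least 2-fold higher numbered 2 of the 3 that reached 20 CPM in the E15.5 maxillary library (3.87% of all genes), 5 of 7 in the E15.5 mandibular (4.79%), 2 of 4 in the P1 maxillary (6.87%) and 3 of 5 in the P1 mandibular library (7.59%). The P1 maxillary pair, Alpl and Phex, did not reach 2-fold with whole parent clusters, where Phex had a log2 ratio of 0.66. Of the P1 mandibular 3 (Sp7, Alpl and Enpp1), Enpp1 turned to log2 ratios of -0.77, -0.43 and -0.47 with doublets kept, shared barcodes kept and a minimum of 2000 UMIs and was at 0.72 with the gene filter, and with shared barcodes kept Alpl was the only one of them past 2-fold. None was at least 2-fold lower (3.82%, 12%, 13.1% and 10.9% of genes). Of the same genes 3 of 3, 7 of 7, 4 of 4 and 4 of 5 gave a ratio above 1 (51.8%, 41.7%, 45.2% and 48% of genes). The exception was P1 mandibular Bglap, from 7 bone-like UMIs, which turned to log2 ratios of 0.72 to 4.34 under 5 alternatives, 4 of them past 2-fold. Among the ratios above 1, that of E15.5 mandibular Enpp1 turned to -0.435 on the log2 scale with whole parent clusters. Against epithelium-like cells the numbers were 3 of 3 (15%), 6 of 7 (12.5%), 4 of 5 (15.4%) and 4 of 4 (16%). P1 maxillary Alpl turned to a log2 ratio of -0.21 with whole parent clusters, and P1 mandibular Alpl fell short of 2-fold there (0.89). P1 mandibular Enpp1 fell short of 2-fold under 4 alternatives, with log2 ratios of 0.54 with shared barcodes kept to 0.84 with a minimum of 2000 UMIs. None was at least 2-fold lower (11%, 15.4%, 17.9% and 14.5% of genes), and 3 of 3, 6 of 7, 4 of 5 and 4 of 4 gave a ratio above 1 (49.2%, 43.4%, 45.3% and 49%). Runx2 was 38.4-, 34.9-, 45.7- and 49.2-fold higher in bone-like than in epithelium-like cells, and Enpp1 had log2 ratios of -0.21 (-0.79 to 0.35) in the E15.5 mandibular and -0.24 (-1.70 to 0.89) in the P1 maxillary library. The first turned to 0.27 with the mean of single-cell CPM and 0.88 after thinning, and the second to 0.26 with the mean of single-cell CPM.

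Stages and jaws were compared within bone-like cells as values of single libraries. In the maxilla none of the 4 members that reached 20 CPM differed by 2-fold or more between P1 and E15.5, where 5.56% of genes were higher and 8.29% lower at P1. In the mandible 1 of 7, Enpp1, was higher at P1 (2.63-fold; 14.8% of genes) and 1, Bglap, was lower (3.32-fold; 7.19%). Both directions turned with the processing, Bglap to log2 ratios of 0.20 to 3.55 under 4 alternatives, the highest with doublets kept, and Enpp1 to -0.46 with shared barcodes kept and -0.47 after thinning. Few UMIs remain in bone-like cells after thinning, so the thinned ratio is uncertain. The Runx2 log2 ratio of P1 over E15.5 was 0.16 (0.04 to 0.28) in the maxilla and 0.79 (0.69 to 0.88) in the mandible, where it ranged from 0.04 to 1.37 over 9 alternatives. Between the jaws at E15.5, 2 of 7 members, Bglap (17.1-fold) and Bglap2 (11.9-fold), were at least 2-fold lower in the maxillary library, where 4.07% of genes were, and none was higher (9.82%; 13.9% differed either way). On the mandibular side 67 of 77 Bglap UMIs lay in 11.4% and 40 of 46 Bglap2 UMIs in 5.71% of the 35 cells led by Ibsp and Ifitm5, and with resolution 2.0 the log2 ratios were -1.42 and -1.57. At P1, 2 of 5, Sp7 (2.69-fold) and Enpp1 (3.37-fold), were lower in the maxillary library (13% of genes) and none was higher (10.5%; 23.5% differed either way). The Enpp1 ratio turned to 0.10 on the log2 scale with shared barcodes kept in both libraries, where mandibular bone-like cells held 18.2 CPM, and that of Sp7 fell short of 2-fold there (-0.47) and with the mean of single-cell CPM (-0.90). The clusters that held the class differed between these libraries, as given above, and their part in the differences cannot be told apart from stage or jaw.

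Other classes gave larger stage ratios for some members. In follicle-like cells Runx2 was 1.93-fold higher at P1 in the maxilla and 2.05-fold in the mandible. With shared barcodes dropped from both libraries the maxillary direction turned, to 1.89-fold lower at P1 (485 CPM), and with the gene filter the mandibular log2 ratio was 0.12. In epithelium-like cells Alpl was 17.4-fold and 3.102-fold higher at P1, although the E15.5 mandibular class was oral epithelium alone and the maxillary ratio was 4.06-fold, from 36.7 CPM at P1, with shared barcodes dropped. In papilla-like cells Alpl was 6.28-fold and 12.2-fold higher at P1, with maxillary log2 ratios of 0.69 to 3.50 over 6 alternatives. Between the jaws at P1, 1 of 7 members differed by at least 2-fold in odontoblast-like cells, Phex, which was 2.44-fold lower in the maxillary library (0.984% of genes lower, 0.354% higher, 1.34% either way). Bglap was 1.91-fold and Bglap2 1.70-fold lower there, and the Runx2 log2 ratio was -0.01 (-0.15 to 0.14). With shared barcodes dropped from both libraries, which left 25 maxillary cells, Bglap was 14.2-fold, Bglap2 10.3-fold and Phex 6.15-fold lower in the maxillary library and Runx2 2.45-fold higher. Dspp was lower in the same direction (301 against 1047 CPM), and the group with most Dspp held 10 of 370 maxillary and 62 of 369 mandibular cells.

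The maxillary odontoblast-like values depended on the shared barcodes. With these dropped from both libraries, 25 maxillary odontoblast-like cells remained, with 147 CPM of Bglap (92.3 to 223), 80.3 of Bglap2 (41.5 to 140), 121 of Phex (71.4 to 190), 288 of Runx2 (208 to 388), 174 of Sp7 (114 to 255), 449 of Alpl (348 to 570) and 167 of Enpp1 (108 to 247). With the shared barcodes kept in both, 720 mandibular odontoblast-like cells held 1902 CPM of Bglap, 647 of Phex, 115 of Runx2 and 192 of Sp7. The mandibular values above contain no shared barcode, and there Bglap, Phex, Sp7 and Enpp1 were likewise higher in odontoblast-like than in bone-like cells and Runx2 lower.

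A list of 24 further osteogenic and mineralization genes was read beside the members. Between bone- and odontoblast-like cells, 19 of them reached 20 CPM in each P1 library; 4 were at least 2-fold higher in bone-like cells in the maxilla and 6 in the mandible (20.2% and 20.4% of all genes), and 7 and 6 were lower (14.9% and 11.6%), so that the share higher in the maxilla was near that of all genes. Higher in both jaws were the parathyroid hormone receptor Pth1r (140 and 310 CPM in bone-like, 38.1 and 32.4 CPM in odontoblast-like cells), the vitamin D receptor Vdr (55.3 and 180 against 16.1 and 17.4 CPM), the mineralization inhibitor Mgp (130 and 303 against 1.26 and 4.20 CPM) and Twist1 (140 and 107 against 47.5 and 34.5 CPM). Lower in both jaws were the sphingomyelinase gene Smpd3 (42.3 and 289 against 2229 and 2161 CPM), the homeobox genes Msx2 (0 and 7.52 against 199 and 163 CPM) and Dlx3 (0 and 16.9 against 85.6 and 77.9 CPM), Twist2 (3.25 and 5.64 against 21.9 and 22.7 CPM), and Bglap3 (0 in both against 30.2 and 55.7 CPM).

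Between odontoblast-like and papilla-like cells, 3 of 17 list genes in the maxilla and 4 of 19 in the mandible were at least 2-fold higher in odontoblast-like cells (8.17% and 8.02% of all genes), and 5 of 17 and 7 of 19 were lower (18.3% and 16.6%). Ank, which carries pyrophosphate out of the cell, stood at 105 and 148 CPM in odontoblast-like against 30.9 and 41.1 CPM in papilla-like cells, and Smpd3 and Bglap3 were also at least 2-fold higher in both jaws. Dlx5, Slc20a2, Twist2, Hey1 and Sox9 were at least 2-fold lower in both, Sox9 at 34.4 and 30.7 against 208 and 185 CPM. Between bone- and follicle-like cells, list genes at least 2-fold higher in bone-like cells numbered 3 of 15, 4 of 16, 6 of 16 and 6 of 16 in the 4 libraries (3.87%, 4.79%, 6.87% and 7.59% of all genes), and 3, 2, 3 and 3 were lower (3.82%, 12%, 13.1% and 10.9%). Pth1r was at least 2-fold higher in all 4 libraries (214, 520, 140 and 310 against 76.0, 72.4, 66.5 and 66.1 CPM), while Twist1, an inhibitor of osteoblast differentiation, was at least 2-fold lower in all 4 (134, 90.9, 140 and 107 against 274, 259, 353 and 307 CPM).

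Likeness was read over 57 combinations of a named class and a library with at least 50 cells, among 12799 genes, as the Pearson correlation of log2(CPM + 1), given as a description because combinations share libraries. Bglap was most like Bglap2 (r = 0.957), its near copy, followed by Gm10629 (0.844) and Gm29040 (0.84). Runx2 was most like Clec11a (0.846), Frzb (0.838) and 1700018A04Rik (0.81), and genes like Sp7 included Panx3 (0.837) and 9130024F11Rik (0.835). Alpl was most like D030025E07Rik (0.835), Ptch1 (0.81) and Tcf7 (0.803). Phex was most like D530037P16Rik (0.798), Gm30191 (0.76) and Chst13 (0.751), and Enpp1 most like Gm15417 (0.714), Sgms2 (0.713) and Metrnl (0.671). Phospho1 stayed under 20 CPM in every combination. Among the 8 genes themselves, Runx2 was least like Bglap (0.298), Bglap2 (0.331) and Phex (0.341), leaving out Phospho1, and most like Alpl (0.772) and Sp7 (0.695).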

How the data were processed

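The authors prepared 10x 3′ libraries from pooled molar tooth organs and deposited raw UMI counts per gene and barcode, made with Cell Ranger 7.0.1 on mm10; the strand setting of the counting was not given in the sources used here. Barcodes with at least 1000 UMIs were kept, barcodes shared by both P1 libraries were dropped from the mandibular one, and barcodes over 3 median absolute deviations in mitochondrial percentage or among the top Scrublet scores (0.8% per 1000 barcodes) were removed, because the automatic doublet threshold marked 0, 1, 340 and 372 barcodes in the 4 libraries. Cells were scaled to 10000 counts and clustered per library with scanpy 1.11.5 (2000 variable genes, 40 components, Leiden resolution 1.0), leaving out the 8 genes and 24 pathway genes. A cluster could be named when its markers had a mean position of at least 0.4 and at least 3 were detected. Where several lists qualified, markers among the 10 leading genes decided first, then the mean position. A bone-like cluster that also met the odontoblast list was called odontoblast-like when its odontoblast position was higher. Clusters stayed unnamed when another tissue had more leading genes or their median UMIs were far below the library's. Larger clusters with a bone position of at least 0.4 and a leading bone marker, not named odontoblast-like, were split again at resolution 0.5. The members, marker and pathway lists were chosen with earlier results of these data known, and the naming thresholds, the further splits and the clusters singled out by their leading genes were chosen after values were seen; the rule for named genes was the 8 members, pathway genes past 2-fold with at least 20 CPM in the same direction in both jaws, and the 3 most alike genes of each member. A gene that this rule names is not reported here.

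Each group was 1 library, so no test was run. Ratios of levels carry exact binomial (Clopper-Pearson) 95% intervals and levels exact Poisson ones; where a class had 0 UMIs, 3 were put in its place and the value was read as a limit, and none was given when this limit exceeded the other level or when both classes held 3 UMIs or fewer. Cells are not replicates, and the intervals cover counting error only. Libraries held 86659227 to 139873101 UMIs in all; the precision of a level is limited by the UMIs of its class, such as 307659 in P1 maxillary bone-like cells. The interval and fold code was tested on simulated counts. Alternatives covered doublets, filters, shared barcodes, resolution, weighting, thinning to 1000 UMIs and a 50-CPM minimum. Python 3.11.15, numpy 2.4.6, scipy 1.17.1, pandas 2.3.3 and leidenalg 0.10.2 were used.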

Additional observations from a re-analysis of the deposited data

Results flagged for a closer look

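Several ratios pointed in opposite directions in both jaws or both stages with intervals that leave out 0; each side is 1 library, and the differences were not tested. The log2 ratio of P1 over E15.5 for Bglap in bone-like cells was 2.34 in the maxilla and -1.73 in the mandible, from 4 against 7 UMIs and from 7 against 77 UMIs; the mandibular ratio turned positive under 4 alternatives (0.20 to 3.55). That of Runx2 in papilla-like cells was 2.84 in the maxilla and -1.61 in the mandible, where the E15.5 classes held 301 and 73 cells led by different genes; the maxillary ratio turned to -1.17, -2.61 and -1.05 under 3 alternatives. That of Alpl in follicle-like cells was 0.71 in the maxilla and -0.81 in the mandible; the maxillary ratio turned to -0.24 with shared barcodes dropped from both libraries and the mandibular one to 0.19 with doublets kept. That of Enpp1 in epithelium-like cells was 1.19 in the maxilla and -0.48 in the mandible, where the E15.5 class was suprabasal oral epithelium alone; with shared barcodes dropped the maxillary ratio was 0.10.

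The maxillary over mandibular log2 ratio of Runx2 in bone-like cells was 0.20 at E15.5 and -0.42 at P1; it turned in 3 of 8 alternatives at E15.5, to as low as -0.63, and in 1 of 4 at P1, to 0.36. That of Alpl in follicle-like cells was -0.84 at E15.5 and 0.68 at P1; at P1 it was -0.27 with shared barcodes dropped from both libraries and 0.08 with them kept in both, and at E15.5 it came to -0.0034 with resolution 2.0.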

How the results depend on the processing

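Counts of members with a ratio above 1 (bone-like against other cells) or past 2-fold (the rest) were repeated under each alternative. They take every member with a ratio, with no minimum CPM, limits included, whether or not the interval includes 0. They therefore differ from the 2-fold counts at 20 CPM. No share of all genes stands beside them, so they show how counts moved, not how members compare with other genes. Members higher in bone-like than odontoblast-like cells numbered 1 in the P1 maxillary library, and 2 with the mean of single-cell CPM; they numbered 2 in the P1 mandibular library, and 1 with doublets kept or with whole parent clusters. Against follicle-like cells, thinning to 1000 UMIs lowered the E15.5 mandibular count from 7 to 4 and the P1 maxillary count from 6 to 3, and a minimum of 2000 UMIs the P1 mandibular count from 5 to 3. Against epithelium-like cells thinning gave 3 in place of 7 (E15.5 maxillary) and 3 in place of 6 (P1 maxillary). Fewer UMIs remain after thinning; the cause of the other changes was not tested. Members at least 2-fold higher at P1 in bone-like cells numbered 2 in the maxilla, 0 after thinning and 1 with whole parent clusters; in the mandible they numbered 1, with 3 when doublets were kept, 2 without the mitochondrial filter or with whole parent clusters, and 0 with shared barcodes kept, a minimum of 2000 UMIs or thinning. Jaws differed in bone-like cells in 2 members at E15.5, 4 with a minimum of 2000 UMIs or the mean of single-cell CPM, and in 3 at P1, 1 after thinning. In odontoblast-like cells they differed in 1 member, in 2 with the gene filter, a minimum of 2000 UMIs, resolution 2.0, the mean of single-cell CPM or thinning, and in 4 with shared barcodes dropped from both libraries.

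Among ratios of at least 2-fold, the log2 ratios that changed sign were those of Alpl in bone-like over follicle-like (-0.26) and over epithelium-like cells (-0.21) of the P1 maxillary library with whole parent clusters, and of Enpp1 in bone-like over follicle-like cells of the P1 mandibular library with doublets kept (-0.77), shared barcodes kept (-0.43) and a minimum of 2000 UMIs (-0.47). The P1 over E15.5 ratio in bone-like cells reversed for Bglap2 in the maxilla with whole parent clusters (-0.28), for Bglap in the mandible with doublets kept (3.55), the gene filter (0.20), resolution 2.0 (0.30) and whole parent clusters (0.57), and for Enpp1 in the mandible with shared barcodes kept (-0.46) and thinning (-0.47). Enpp1 between jaws at P1 in bone-like cells gave 0.10 with shared barcodes kept. Runx2 in papilla-like cells gave -1.17, -2.61 and -1.05 between stages in the maxilla (doublets kept, no mitochondrial filter, minimum of 2000 UMIs) and 0.40 between jaws at E15.5 without the mitochondrial filter, and Alpl there gave 0.63 between jaws at E15.5 with a minimum of 2000 UMIs. Ratios under 2-fold changed sign in 81 cases, among them Runx2 between stages in maxillary follicle-like cells (-0.92 with shared barcodes dropped). Counts of members at least 2-fold higher in odontoblast-like than in papilla-, epithelium- and follicle-like cells stayed within 1.5 times their value under each alternative that gave one. In all, 25 of 155 counts and 553 of 1371 ratios moved and 18 ratios of at least 2-fold reversed.

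The P1 maxillary library had no bone-like class with doublets kept, the gene filter, no mitochondrial filter, a minimum of 2000 UMIs, resolution 2.0 or shared barcodes dropped from both, and in the last case no papilla-like class for the odontoblast comparison, so these gave no value. Whole parent clusters and all alternatives for odontoblast-like cells were chosen after seeing the data. No paired analysis was possible because each group was 1 library, whose replicate number is only a name; the stages were not paired by jaw, which is itself a group of the study. Depth limits Phospho1 everywhere and Bglap, Phex and Enpp1 in bone-like cells at P1.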
